A study of Mus musculus with 6 samples.

Results

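Nuclear factor kappa B (NF-κB) is a family of transcription factors built from pairs of subunits, and the genes of these subunits and of the proteins that hold them back were compared between B16 melanoma cells of high and low tyrosinase activity. The members were the 10 genes of the deposited tables whose symbol was Rela, Rel, Nfkb1, Relb, Nfkb2, Nfkbia, Nfkbib, Nfkbie, Nfkbiz or Bcl3, out of 20788 genes listed in at least 1 library, and all 10 also passed the filter on low values that left 14336 genes for testing. The samples were bulk mRNA libraries of B16, a mouse melanoma line from C57BL/6, grown in low glucose DMEM with 10% fetal bovine serum, with no further treatment in either group. Tyr-H was a population of high tyrosinase activity (n = 3 libraries) and Tyr-L a population of low tyrosinase activity (n = 3 libraries), both derived from subclones of the parental line that were grouped by their use of tyrosine. No time point or genetic modification was given for the libraries. Separate cultures, or more than 1 clone, behind the 3 libraries of each group are not stated for these libraries in the sources used here, beyond a general remark of the study on independent experiments, so the p-values measure only the spread between these libraries, which may be technical.

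In resting cells the p65 (Rela), c-Rel (Rel) and p50 (Nfkb1) subunits are kept in the cytoplasm by the inhibitors IκBα, IκBβ and IκBε, and inflammatory signals release them through the IκB kinase complex, a route called canonical. In the non-canonical route, NF-κB-inducing kinase drives processing of p100 (Nfkb2) to p52, which pairs with RelB. Several genes of the family are themselves NF-κB targets, IκBα being the textbook example of negative feedback, and melanoma cells are known for basal NF-κB activity and chemokine output.

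The promoter windows of the members are shown first, because known feedback on genes of the family, such as that of IκBα, is attributed to κB sites near the gene start. RefSeq windows (GRCm38.p6, 300 bases each, from 250 bases before to 50 after a start site) were held for 7 of the 10 members and were searched on both strands for the textbook κB consensus, a 10-base motif that opens with a run of G and closes with C. It was found in the windows of 5 of these 7 members, namely Rel, Nfkb2, Nfkbia, Nfkbie and Bcl3, against 9.55% of the 27025 genes that have a window. Nfkb2 had 3 windows, and several genes of the family are known NF-κB targets, so the count is a description and no test. Rela and Nfkbib had no match, while Relb, Nfkb1 and Nfkbiz had no window. A looser pattern, GGGNNNNNCC, which contains every consensus match, was found in 6 of the 7 members and in 53.5% of all genes with a window. The stretches of 30 bases around the consensus matches are given 5′ to 3′ on the strand of the gene, with the matching bases, or overlapping matches joined, in capitals.
Nfkbia, chr12:55492657-55492686, minus strand: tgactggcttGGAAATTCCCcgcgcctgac
Nfkbie, chr17:45555584-45555613, plus strand: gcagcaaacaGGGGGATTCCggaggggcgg
Nfkb2, chr19:46304688-46304717, plus strand: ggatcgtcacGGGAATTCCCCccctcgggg
Nfkb2, chr19:46304716-46304745, plus strand: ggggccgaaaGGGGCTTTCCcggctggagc
Nfkb2, chr19:46305449-46305478, plus strand: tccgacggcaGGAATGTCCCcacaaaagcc
Nfkb2, chr19:46305695-46305724, plus strand: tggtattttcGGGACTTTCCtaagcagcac
Bcl3, chr7:19822734-19822763, minus strand: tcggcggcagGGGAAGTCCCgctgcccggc
Rel, chr11:23771042-23771071, minus strand: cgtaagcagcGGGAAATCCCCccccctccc

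The first matching base lay 29 bases before the start site in Nfkbia, 106 before it in Nfkbie and 92 before it in Rel. In Bcl3 it lay 2 bases after the start site, inside the first exon. Nfkb2 carried 4 separate matches over its 3 annotated start sites, the first of them 39 bases before the most upstream RefSeq start, and all 4 touch annotated exons or lie past a start. The GENCODE gene begins upstream of the RefSeq starts. The upstream 250 bases of Nfkbia and Nfkbie, the inhibitor genes with the larger differences between the groups, lie in no annotated exon and are shown whole, the capitals again marking the consensus match.
Nfkbia, chr12:55492648-55492897, minus strand: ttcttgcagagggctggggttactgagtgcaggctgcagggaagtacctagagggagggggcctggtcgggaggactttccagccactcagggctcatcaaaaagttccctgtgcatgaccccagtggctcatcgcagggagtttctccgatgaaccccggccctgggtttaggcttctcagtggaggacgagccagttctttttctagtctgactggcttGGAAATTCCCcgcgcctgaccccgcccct
Nfkbie, chr17:45555450-45555699, plus strand: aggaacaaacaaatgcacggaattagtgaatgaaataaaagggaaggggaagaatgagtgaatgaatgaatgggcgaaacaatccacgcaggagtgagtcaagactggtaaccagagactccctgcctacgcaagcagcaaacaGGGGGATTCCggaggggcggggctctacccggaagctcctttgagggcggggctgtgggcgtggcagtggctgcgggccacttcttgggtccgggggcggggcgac
A match is a description of the sequence, and binding to these sites or their use was not tested. Of the 5 members with a consensus match, Nfkbia, Nfkbie and Bcl3 are called higher in Tyr-H below, Nfkb2 falls just under the fold threshold and Rel has overlapping groups. Relb, also called higher, had no window.

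Relb, Bcl3, Nfkbie and Nfkbia were higher in Tyr-H than in Tyr-L cells, by 3.58-fold, 4.44-fold, 3.32-fold and 2.12-fold in mean FPKM, which counts fragments per kilobase of transcript and per 1000000 fragments and is the unit of all levels given here. Nfkb2 differed by 1.98-fold, just under the 2-fold threshold. The 3 canonical subunit genes differed far less, and Rel did not separate the groups. In bulk libraries a difference in the share of cells that express a gene and a difference in its level per cell cannot be told apart. A gene was called when its adjusted p was at most 0.05 in limma, a linear model fitted to log2(FPKM + 0.1) over all 14336 tested genes, and its log2 fold change was at least 1 in size. By this rule 4 of the 10 members were called, all higher in Tyr-H, against 8.75% of all tested genes called in either direction and 2.96% called higher. Without the fold threshold 7 of the 10 members had an adjusted p of at most 0.05, all with the higher level in Tyr-H, against 17.9% of tested genes in that direction and 57.8% in either. The weakest of these 7, Nfkbib, no longer passed in 5 of the 6 fits that left out a library, after rescaling to a common total (adjusted p = 0.69) or without a variance trend (adjusted p = 0.07), whereas Nfkb1 and Nfkbiz passed after median ratio scaling (adjusted p = 0.00086 and 0.01). The 3 Tyr-H values all lay on the same side of the 3 Tyr-L values in 9 of the 10 members, but this held for 64.0% of all tested genes, so the separation alone sets the members little apart. The median log2 fold change of the members was 0.67 (range 0.03 to 2.02), beside a median of -0.15 over all tested genes. The pseudocount of 0.1 FPKM makes these log2 values slightly smaller than the log2 of the ratio of means for the low genes.

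**Figure D1:**
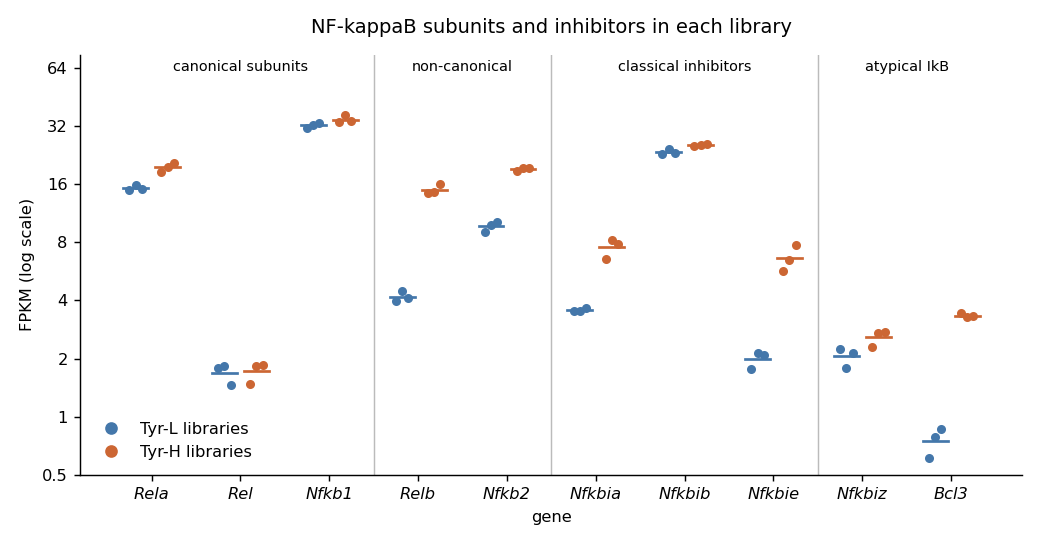
FPKM on a log scale (vertical axis) of each member in the 3 Tyr-L and the 3 Tyr-H libraries, grouped by role along the horizontal axis, with short lines at the group means. Relb moves from 4.19 to 15.0 FPKM and Bcl3 from 0.752 to 3.34 FPKM, whereas Rel stays between 1.46 and 1.85 FPKM in all 6 libraries.

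Among the canonical subunits, Rela (ENSMUSG00000024927, chr19:5637483-5648130, plus strand), which encodes the transactivating subunit p65, was at 14.9, 15.8 and 15.1 FPKM in Tyr-L, compared with 18.6, 19.7 and 20.7 FPKM in Tyr-H. All Tyr-H libraries were above all Tyr-L libraries, and the means were 15.3 ± 0.475 and 19.7 ± 1.06 FPKM (SD, n = 3 each). The log2 fold change was 0.37 (SE 0.05, 95% confidence interval 0.25 to 0.48, adjusted p = 0.00028), which passed the adjusted p and stayed under the fold threshold. Nfkb1 (ENSMUSG00000028163, chr3:135584655-135691547, minus strand), the gene of the p50 precursor p105, had 31.4, 32.4 and 33.2 FPKM in Tyr-L, against 33.5, 36.4 and 34.0 FPKM in Tyr-H. The groups were adjacent, with the lowest Tyr-H library just above the highest Tyr-L library. Its log2 fold change of 0.1 (SE 0.04, adjusted p = 0.085) did not pass. Rel (ENSMUSG00000020275, chr11:23736847-23770970, minus strand), encoding c-Rel, a subunit best known from lymphocytes, had 1.78, 1.82 and 1.46 FPKM in Tyr-L, against 1.48, 1.83 and 1.85 FPKM in Tyr-H. The groups overlapped, and the log2 fold change was 0.03 with an interval of -0.3 to 0.35 (adjusted p = 0.87), so a difference of up to about that size in either direction could not be told from none. Its sign turned negative after rescaling every library to the same total FPKM (-0.06).

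The non-canonical subunits differed more. Relb (ENSMUSG00000002983, chr7:19606217-19629438, minus strand), the partner of p52, was at 3.97, 4.46 and 4.14 FPKM in Tyr-L, against 14.4, 14.6 and 16.1 FPKM in Tyr-H. The lowest Tyr-H library exceeded the highest Tyr-L library by far more than either group's own spread (means 4.19 ± 0.249 and 15.0 ± 0.937 FPKM). The log2 fold change of 1.82 (SE 0.07, interval 1.65 to 1.98, adjusted p = 2.4e-07) was the second among the members, and 123 of the 14336 tested genes had a larger one. Nfkb2 (ENSMUSG00000025225, chr19:46304320-46312385, plus strand), the gene of p100 and p52, was at 9.04, 9.87 and 10.2 FPKM in Tyr-L, against 18.7, 19.4 and 19.5 FPKM in Tyr-H. The groups did not overlap (9.69 ± 0.586 and 19.2 ± 0.439 FPKM), and the log2 fold change was 0.98 (SE 0.06, interval 0.85 to 1.11, adjusted p = 1.4e-06). Nfkb2 was therefore the member just outside the fold threshold and Nfkbia, at 1.06, the member just inside it, and which of them was called depended on the scaling. After median ratio scaling the log2 fold change of Nfkb2 was 1.13 and after quantile normalization 1.12, and both then passed. Nfkb2 shares 299 exonic bases with Psd and 531 with AC114539.1 on the opposite strand, and these neighbours averaged 0.189 and 0.0 FPKM over the 6 libraries. The deposited locus, chr19:46304736-46327156, joins Nfkb2 with Psd, although each has a value of its own.

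**Figure D2:**
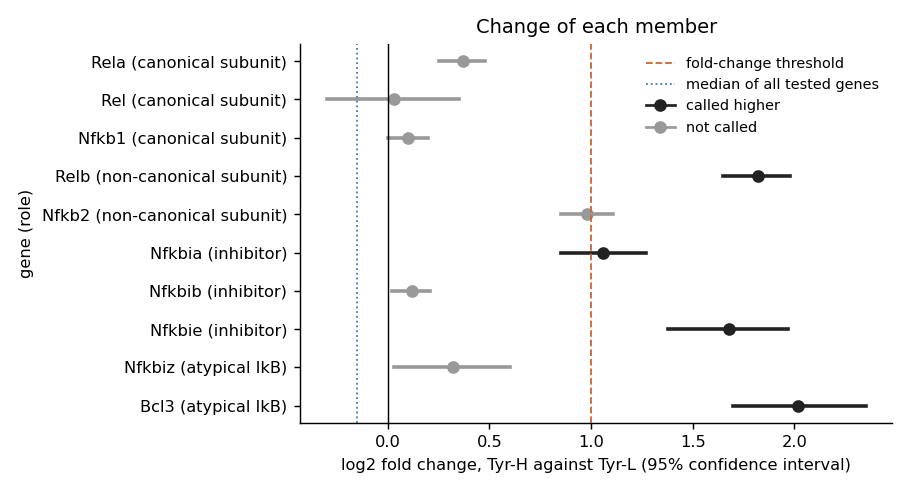
Log2 fold change, Tyr-H against Tyr-L (horizontal axis), with its 95% confidence interval for each member (vertical axis, role in brackets), the dashed line marking the fold threshold and the dotted line the median of all tested genes. Relb, Nfkbia, Nfkbie and Bcl3 lie past the threshold, Nfkb2 sits on it at 0.98, and the canonical subunits lie between 0.03 and 0.37.

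The classical inhibitors were split. Nfkbia (ENSMUSG00000021025, chr12:55489410-55492647, minus strand), encoding IκBα, the inhibitor that is degraded and resynthesised fastest, was at 3.54, 3.52 and 3.66 FPKM in Tyr-L, against 6.58, 8.28 and 7.89 FPKM in Tyr-H. The Tyr-L libraries lay close together (3.57 ± 0.0786 FPKM) and the Tyr-H libraries were more spread but all higher (7.58 ± 0.894 FPKM), giving a log2 fold change of 1.06 (SE 0.09, interval 0.85 to 1.27, adjusted p = 1.5e-05). This call was lost without the second Tyr-H library (0.99), after rescaling to a common total (0.98) and with a pseudocount of 1 FPKM (0.9). Nfkbie (ENSMUSG00000023947, chr17:45555703-45563169, plus strand), encoding IκBε, was at 1.76, 2.14 and 2.1 FPKM in Tyr-L, against 5.67, 6.49 and 7.76 FPKM in Tyr-H. Again no library of the groups overlapped, and the log2 fold change was 1.68 (SE 0.13, interval 1.38 to 1.97, adjusted p = 6.9e-06). Nfkbib (ENSMUSG00000030595, chr7:28758251-28767512, minus strand), encoding IκBβ, was the most abundant of the 3 at 23.1, 24.5 and 23.2 FPKM in Tyr-L, against 25.3, 25.5 and 26.0 FPKM in Tyr-H. Its log2 fold change was small, 0.12 (SE 0.04, interval 0.02 to 0.21, adjusted p = 0.034). Nfkbib shares 42 exonic bases with the opposite-strand gene Sirt2, which averaged 45.9 FPKM, and its deposited locus is joined with neighbouring genes as well. Whether strand was used is not stated, so the levels of the members that share exonic bases with another gene, Nfkbib, Nfkb2 and Bcl3, are less certain than those of the other members.

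The atypical IκB proteins act in the nucleus, where Bcl-3 binds p50 and p52 dimers and IκBζ serves as a coactivator of secondary inflammatory genes. Bcl3 (ENSMUSG00000053175, chr7:19808462-19822770, minus strand) was at 0.609, 0.784 and 0.862 FPKM in Tyr-L, against 3.43, 3.27 and 3.31 FPKM in Tyr-H. It was the lowest member in Tyr-L and had the largest change of the 10, with a log2 fold change of 2.02 (SE 0.14, interval 1.7 to 2.35, adjusted p = 4.3e-06), and 89 tested genes had a larger one. With a pseudocount of 1 FPKM the value was 1.31, as the pseudocount is larger than the Tyr-L level. Bcl3 shares 161 exonic bases with Gm16175 on the opposite strand, which averaged 0.0 FPKM, and overlaps Gm16174 (0.109 FPKM) with no exonic base shared. Nfkbiz (ENSMUSG00000035356, chr16:55811375-55838899, minus strand) was at 2.25, 1.79 and 2.14 FPKM in Tyr-L, against 2.31, 2.7 and 2.74 FPKM in Tyr-H. The groups did not overlap by a narrow margin, and the log2 fold change of 0.32 (SE 0.13, adjusted p = 0.056) did not pass. An exact two-sided permutation test of 3 against 3 libraries cannot go below p = 0.1, the value for 9 members, and gave p = 0.5 for Rel.

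The depth behind these values could be estimated only from the smallest step between FPKM values, which pointed to between 18800000 and 21400000 fragments per library. On that scale Bcl3 rested on about 22 to 129 fragments per library, Nfkbie on 103 to 452, Nfkbia on 109 to 280, Relb on 253 to 1019 and Nfkb1 on 2535 to 3235. The Tyr-L values of Bcl3 are therefore the least precise of the members.

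Canonical and non-canonical subunits were set against each other within each library, where a common scaling factor cancels. The summed FPKM of Relb and Nfkb2 was 13.0, 14.3 and 14.3 in Tyr-L and 33.1, 33.9 and 35.6 in Tyr-H, a 2.46-fold difference of the means. The summed FPKM of Rela, Rel and Nfkb1 was 48.0, 50.0 and 49.8 in Tyr-L and 53.6, 58.0 and 56.6 in Tyr-H, a 1.14-fold difference. The ratio of the non-canonical to the canonical sum was thus 0.271, 0.287 and 0.287 in Tyr-L and 0.617, 0.585 and 0.63 in Tyr-H (0.282 ± 0.00936 and 0.61 ± 0.0232). The Tyr-H ratio was 2.17 times the Tyr-L ratio, a log2 difference of 1.12 beside SDs of 0.05 and 0.06 within the groups. The ratio is a description of genes chosen with these data known and carries no p. It does not measure processing of p100 or nuclear entry, which mRNA levels leave unseen.

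**Figure D3:**
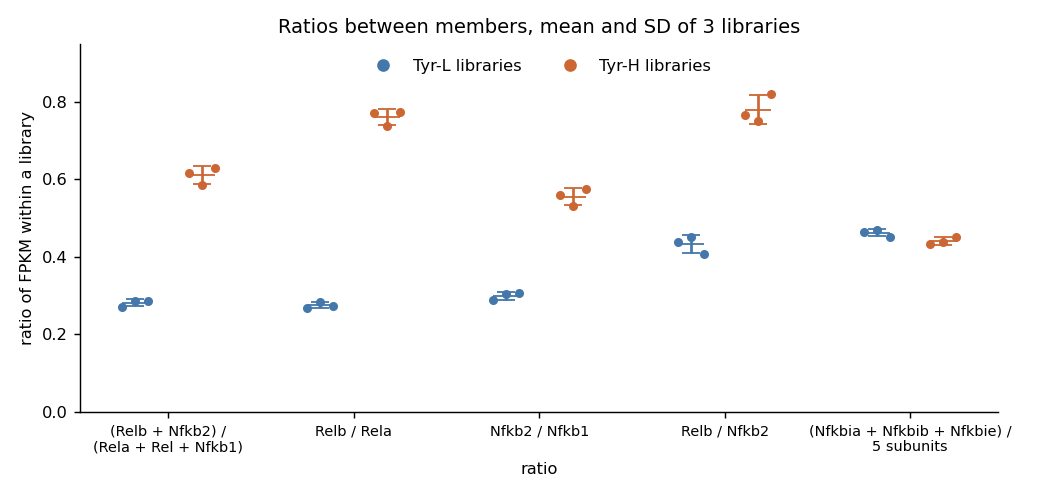
Ratios of FPKM within a library (vertical axis) for 5 pairs of members or sums (horizontal axis), with each of the 3 Tyr-L and 3 Tyr-H libraries as a point and the group mean and SD as bars. The 4 ratios with a non-canonical subunit on top are separated between the groups, and the ratio of inhibitors to all subunits overlaps at 0.452.

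The groups were also separated in each pair of related subunits. Relb to Rela was 0.267, 0.283 and 0.274 in Tyr-L and 0.771, 0.737 and 0.775 in Tyr-H. Nfkb2 to Nfkb1 was 0.288, 0.304 and 0.306 in Tyr-L and 0.559, 0.532 and 0.575 in Tyr-H. Within the non-canonical pair Relb was higher relative to Nfkb2 in Tyr-H, with a ratio of 0.433 ± 0.0229 among Tyr-L and 0.78 ± 0.0371 among Tyr-H libraries. As shares of the summed FPKM of the 5 subunit genes, Relb made up 6.63 ± 0.261% in Tyr-L and 16.6 ± 0.803% in Tyr-H, and Nfkb2 15.3 ± 0.528% and 21.3 ± 0.273%. Nfkb1 was the largest share in both groups, at 51.2 ± 0.741% and 38.4 ± 1.4%. Rela made up 24.2% and 21.8%, and Rel 2.67% and 1.9%.

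The ratio of the inhibitors to all subunits overlapped between the groups, whereas the makeup of the inhibitors differed. The summed FPKM of Nfkbia, Nfkbib and Nfkbie was 29.2 ± 0.922 in Tyr-L and 39.8 ± 2.09 in Tyr-H, and the sum of the 5 subunits was 63.2 ± 1.84 and 90.3 ± 3.12. The ratio of these sums was 0.465, 0.469 and 0.452 in Tyr-L and 0.433, 0.438 and 0.452 in Tyr-H, so the groups met at 0.452. Against the canonical subunits alone the inhibitor ratio was 0.592 ± 0.0111 in Tyr-L and 0.711 ± 0.0233 in Tyr-H, without overlap. Nfkbib made up 80.9% of the inhibitor sum in Tyr-L and 64.4% in Tyr-H, Nfkbia 12.3% and 19.0%, and Nfkbie 6.84% and 16.6%.

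By level per length, the order in Tyr-L was Nfkb1, Nfkbib, Rela, Nfkb2, Relb, Nfkbia, Nfkbiz, Nfkbie, Rel and Bcl3. The ranges of Nfkbiz and Nfkbie and those of Nfkbie and Rel overlapped, so these neighbours do not differ beyond their spread. In Tyr-H the order began with the same 6 genes and went on with Nfkbie, Bcl3, Nfkbiz and Rel. There, Rela (19.7 FPKM) and Nfkb2 (19.2 FPKM) had overlapping ranges, as did Nfkbia (7.58 FPKM) and Nfkbie (6.64 FPKM). Bcl3 thus moved from the last place to above Nfkbiz and Rel, and Nfkb2 reached the level of Rela.

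The genes most like Bcl3 were sought as those with the smallest distance between their centred log2 values over the 6 libraries, among 11025 other genes that averaged 1 FPKM or more. They were Gch1 (distance 0.25), Tagln2 (0.28), Prkg2 (0.31), Cth (0.31) and Asns (0.32). Gch1, which encodes the first enzyme of tetrahydrobiopterin synthesis, was at 0.726, 1.03 and 1.07 FPKM in Tyr-L, against 3.63, 4.05 and 3.54 FPKM in Tyr-H. Of the other members Relb came 12th (distance 0.4) and Nfkbie 39th (0.57), followed by Nfkbia at 200 and Nfkb2 at 216. The distance rests mainly on the difference between the groups, which any gene with a similar fold change shares.

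Relb and Bcl3 are both on chromosome 7, with 179023 bases between them, so the genes around them were compared in a window of 250 kb on either side, which was chosen after the values of Relb and Bcl3 were seen. Of the 22 other tested genes in this window 1 was called higher in Tyr-H and none lower, with a median log2 fold change of 0.1 (range -0.97 to 1.44). The called gene, Exoc3l2, was low in both groups. The 5 tested genes that lie between Relb and Bcl3 had log2 fold changes of -0.76 to 0.09 and none was called. Among them Apoe, the apolipoprotein E gene, was at -0.76 and Tomm40, a mitochondrial import gene, at -0.01. Pvr, which encodes a ligand of natural killer cell receptors and lies on the far side of Bcl3, was at 0.61, under the fold threshold.

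**Figure D4:**
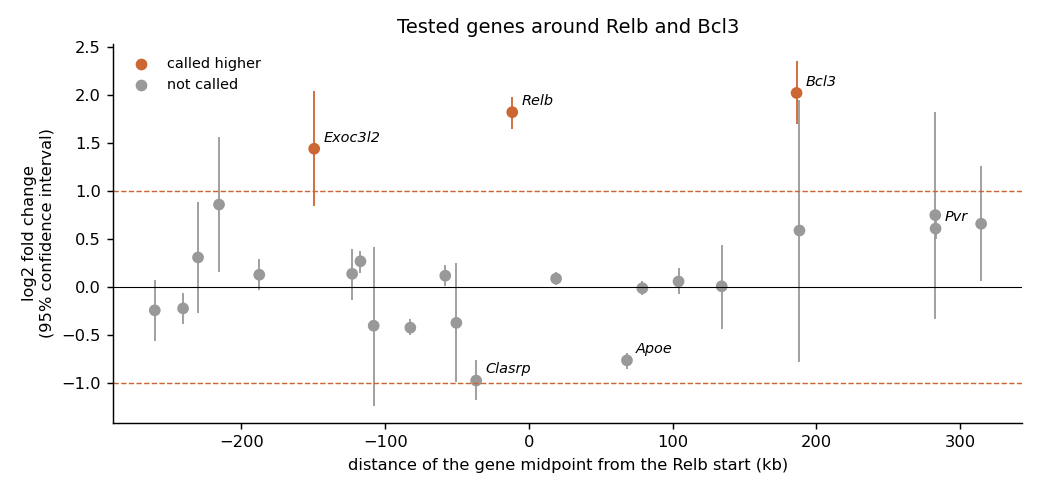
Log2 fold change, Tyr-H against Tyr-L, with its 95% confidence interval (vertical axis) of the 24 tested genes around Relb and Bcl3, by the distance of the gene midpoint from the Relb start in kb (horizontal axis). Relb and Bcl3 stand above the 5 genes between them, which lie between -0.76 and 0.09.

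Other genes of the pathway were read from lists of its arms. Of the non-canonical arm, the receptors, adaptors and kinases upstream of p100 processing, 9 of 12 listed genes were tested and 1 was called, higher in Tyr-H, with a list median of -0.02 and 3 genes passing the adjusted p higher and 1 lower. Among all tested genes 8.75% were called in either direction, and 57.8% passed the adjusted p, 17.9% with the higher level in Tyr-H. The gene called in this list was Tnfrsf12a, the TWEAK receptor gene, at 42.7, 45.6 and 42.5 FPKM in Tyr-L, against 104.0, 103.0 and 114.0 FPKM in Tyr-H (log2 fold change 1.29, adjusted p = 1.8e-07). Ltbr, the lymphotoxin beta receptor gene, was at 27.0 and 45.0 FPKM on average (0.73, adjusted p = 1.5e-06), under the fold threshold. Birc3, the gene of the ubiquitin ligase cIAP2 and itself a known NF-κB target, had a log2 fold change of 0.95 (adjusted p = 0.014). It was called, as the second gene of the list, after median ratio scaling (1.09), quantile normalization (1.12) and with a pseudocount of 0.01 FPKM (1.01), and also without the first or second Tyr-L library or the first Tyr-H library. Without any 1 of the other 3 libraries its adjusted p was 0.051 to 0.054. Map3k14, which encodes NF-κB-inducing kinase, was the gene of this list that passed the adjusted p with the lower level in Tyr-H (1.09 and 0.715 FPKM, log2 fold change -0.57, adjusted p = 0.03). Tnfsf12, the gene of TWEAK, the ligand of the Tnfrsf12a receptor, was at 1.56 and 1.55 FPKM.

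Of the canonical arm, all 14 listed genes were tested and 0 were called by limma, with 8 at an unadjusted p under 0.05, 4 passing the adjusted p higher, 3 passing it lower and a median log2 fold change of -0.12. Of all 14336 tested genes, 8947 had an unadjusted p under 0.05. The adjusted p was passed by 57.8% of them, 17.9% with the higher level in Tyr-H. Counted in either direction, this list is thus no higher than all tested genes. The lowest adjusted p values were those of Tbk1 (-0.58, adjusted p = 7.6e-05), an IκB kinase relative of interferon signalling, Myd88 (0.58, adjusted p = 0.0012), the Toll-like receptor adaptor, and Map3k7 (-0.24, adjusted p = 0.0019), which encodes TAK1. Map3k7 no longer passed after median ratio scaling (-0.08, adjusted p = 0.17) or quantile normalization (-0.11, adjusted p = 0.064). The IκB kinase genes Ikbkb and Ikbkg, which encode IKKβ and NEMO, had log2 fold changes of -0.16 and -0.14 and did not pass, like Chuk of the non-canonical arm, which encodes IKKα (-0.11). Myd88 shares 290 exonic bases with Acaa1a on the opposite strand, which averaged 26.0 FPKM, and Ikbkg shares 418 with G6pdx (81.8 FPKM).

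Of 22 other regulators of NF-κB, 20 were tested and 1 was called higher, with 9 passing the adjusted p higher and 6 lower and a median of 0.09. The shares over all tested genes were 2.96% called higher, 17.9% passing the adjusted p higher and 57.8% passing it in either direction. The called gene was Tnfaip3, which encodes the deubiquitinase A20, at 0.349, 0.327 and 0.165 FPKM in Tyr-L, against 0.525, 0.555 and 0.949 FPKM in Tyr-H (log2 fold change 1.03, SE 0.3, adjusted p = 0.015). The third library of each group lay farthest apart, and the call was lost without either of them and with a pseudocount of 1 FPKM (0.38). Tnip1, the gene of an A20 binding partner, had about 12.8 FPKM in Tyr-L, against 21.5 FPKM in Tyr-H (0.74, adjusted p = 1.4e-06), and Nkiras2, encoding a protein that binds IκBβ, had 0.27 (adjusted p = 0.00017). Nkiras2 shares 287 exonic bases with Dnajc7 on the opposite strand, which averaged 65.6 FPKM.

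Of 30 textbook NF-κB targets 22 were tested and 14 were called, all higher in Tyr-H, and 20 of the 22 passed the adjusted p with the higher level in Tyr-H. Among all tested genes 2.96% were called higher and 17.9% passed the adjusted p in that direction. Of the 14 called genes 8 (Cxcl2, Ccl20, Lcn2, Icam1, Traf1, Il6, Tnf and Psmb9) had a Tyr-L mean below the filter of 0.1 FPKM, so they entered the test only through Tyr-H and had to differ in that direction. These 8 genes are also among the 20 that passed the adjusted p. Of the other 14 tested targets 6 were called, all higher in Tyr-H. The list median, 1.17 (range -0.1 to 7.48), includes the genes that entered through Tyr-H and is only a description. Part of this list had been seen to differ in these libraries before it was written down, and its count is no independent evidence. The called chemokine and cytokine genes were Cxcl1 (6.98), Cxcl2 (7.48), Ccl20 (5.21), Cxcl10 (1.79), Ccl5 (1.66), Lif (2.14), Csf1 (1.31), Il6 (1.28) and Tnf (1.05), the value in brackets being the log2 fold change. Cxcl2 was listed in no Tyr-L library and Ccl20 only in the first, and with unlisted genes set to 0 their values depend on the pseudocount. With a pseudocount of 1 FPKM 7 targets of the list were called, after median ratio scaling 16 and after quantile normalization 15. The other called targets were Icam1 (2.53), Traf1 (1.86), Lcn2 (3.43), Junb (1.01) and Psmb9 (1.0). The calls of Tnf and Psmb9 were each lost in 5 of the 6 fits that left out a library, that of Il6 without the third Tyr-H library (adjusted p = 0.072), and that of Junb without the first Tyr-L library (0.99), without the third Tyr-H library (0.9) and after rescaling to a common total (0.92). With a pseudocount of 1 FPKM the calls of Lcn2 (0.99), Junb (0.89), Icam1 (0.65), Traf1 (0.47), Il6 (0.26), Tnf (0.2) and Psmb9 (0.18) were lost. Lcn2, which encodes the iron-sequestering protein lipocalin 2, was listed in no Tyr-L library and was at 0.708, 1.14 and 1.15 FPKM in Tyr-H. Traf1, the gene of an adaptor of tumor necrosis factor receptors, was at 0.0202, 0.0732 and 0.0836 FPKM in Tyr-L, against 0.405, 0.483 and 0.526 FPKM in Tyr-H. Il6, Tnf, Icam1 and Psmb9 stayed under 1 FPKM in all libraries of both groups. The remaining targets that passed the adjusted p did so under the fold threshold, namely Ier3 (0.99), Irf1 (0.66), Bcl2l1 (0.49), Tap1 (0.43), Sod2 (0.36) and B2m (0.33). Gadd45b (-0.1, adjusted p = 0.6) and Cd274 (0.15, adjusted p = 0.37) did not pass. Junb shares 173 exonic bases with Prdx2 on the opposite strand, which averaged 88.8 FPKM, and Psmb9 (0.125 FPKM on average) shares 212 with Tap1 (2.2 FPKM). Cxcl10 shares 133 exonic bases with Art3 (6.02 FPKM), and Icam1, Irf1 and Cd274 share some with opposite-strand genes that averaged 0.037 FPKM or less.

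**Figure D5:**
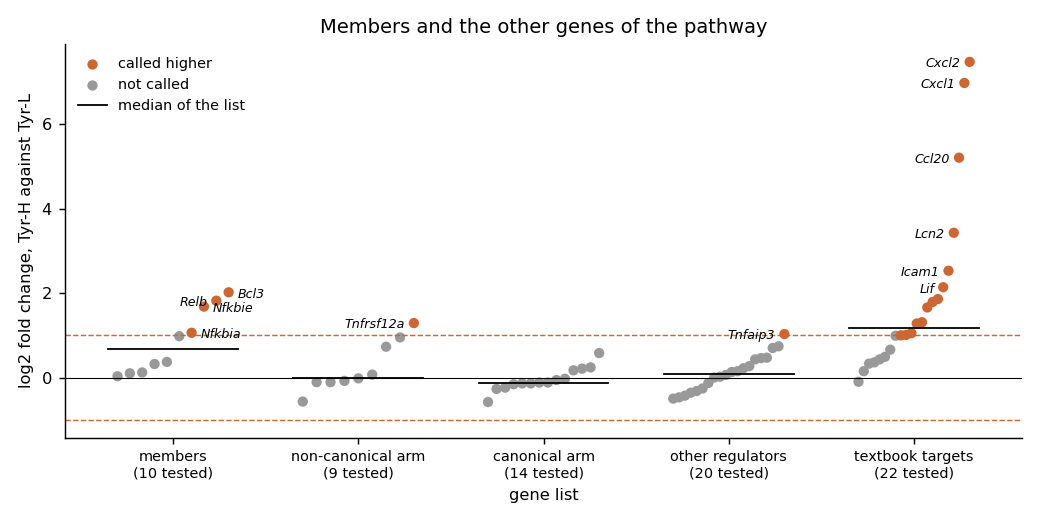
Log2 fold change, Tyr-H against Tyr-L (vertical axis), of the tested genes of each list (horizontal axis) in order of size, with called genes in colour, list medians as black lines and dashed lines at the fold threshold. The medians are 0.67 for the members, -0.12 for the canonical arm, -0.02 for the non-canonical arm and 0.09 for the other regulators. That of the textbook targets, 1.17, includes 8 genes that entered the test only through Tyr-H. The members and lists were chosen with earlier results of these data known, so the medians are only a description.

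The labelled cell type and the possible presence of other cells were read from marker genes. Of 9 melanocyte lineage markers 8 were listed in the libraries, with summed levels of 7340 to 7660 FPKM in Tyr-L, against 5440 to 5960 FPKM in Tyr-H. Tyr, the tyrosinase gene, was higher in Tyr-H (log2 fold change 1.08, adjusted p = 4e-06), whereas the other 7 tested markers passed the adjusted p with the lower level in Tyr-H. Of these Mitf (-1.85) and Kit (-1.13) were called lower, and Pmel (-0.73), Dct (-0.64), Sox10 (-0.57), Mlana (-0.24) and Tyrp1 (-0.23) stayed under the fold threshold. Of 12 leukocyte markers 7, among them the pan-leukocyte gene Ptprc and the myeloid genes Itgam and Csf1r, were listed in no library. The summed leukocyte level was 3.57 to 4.53 FPKM in Tyr-L, against 4.71 to 4.89 FPKM in Tyr-H, most of it Cd68, which had 3.62 and 4.24 FPKM and did not pass. The 8 fibroblast and endothelial markers summed to 1.04 to 1.05 FPKM in Tyr-L, against 0.993 to 1.2 FPKM in Tyr-H, with Cdh5 and Kdr listed in none. Within that sum Col1a1 (0.71, adjusted p = 0.017) and Col1a2 (-0.91, adjusted p = 0.0087) passed in opposite directions, both under 1 FPKM and not called. Their part in the differences of the members was not tested.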

How the data were processed

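Libraries of 6 samples, 3 of Tyr-H and 3 of Tyr-L cells, were made with an mRNA-seq kit and sequenced as paired reads of 150 bases. The submitters' processing notes name Trimmomatic, HISAT, HISAT2 and GRCm38.p6. The program that quantified the genes, its annotation and its use of strand are not given in the sources used here. The deposited values are FPKM per gene, computed by the authors for each library, with 16813 to 17413 genes listed per library, and a gene not listed in a library was set to 0. No counts were used, so depth was estimated from the lowest step of FPKM, and no interval for counting error is given.

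Symbols were matched to GENCODE M21 for coordinates. Genes averaging 0.1 FPKM or more over the 6 libraries were tested with limma 3.58.1 in R 4.3.3 on log2(FPKM + 0.1), with a variance trend, two-sided, and Benjamini-Hochberg adjustment over all of them. Tables and exact tests were made with Python 3.11.15, pandas 2.3.3 and scipy 1.17.1. Alternatives were the pseudocount, the filter, the scaling, the variance trend, a replicate block, leaving out each library and dropping the fold threshold.

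The members and lists were chosen with earlier results of these data known. Named were all members, the called genes of each list and, in lists with fewer than 3 calls, those of lowest adjusted p up to 3. Map3k14, Tnfsf12, the IκB kinase genes, the uncalled targets, the marker genes, the genes most like Bcl3 and the neighbours of Relb were named beyond this rule, after their values were seen. Bcl3 was the reference for likeness as the member of largest fold change. κB matches were read from RefSeq promoter windows.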

Additional observations from a re-analysis of the deposited data

How the results depend on the processing

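Over 15 alternatives for each of the 10 members, Relb, Nfkbie and Bcl3 kept their call, with log2 fold changes of 1.62 to 1.97, 1.34 to 1.85 and 1.31 to 2.2. Nfkbia ranged from 0.9 to 1.23 and Nfkb2 from 0.89 to 1.13 around the fold threshold, and Nfkb2 was also called without the third Tyr-L library (1.02). Without the fold threshold 7 members were called, all higher, instead of 4. Rel, which never passed, reversed to -0.06 after rescaling to a common total and ranged from -0.07 to 0.13 when libraries were left out. The log2 difference of the non-canonical to canonical ratio was 1.23 from mean log2 values per arm, beside 1.12 from sums, a change in how the members are weighted. Over all tested genes the log2 fold change had a median of -0.15 as deposited, -0.25 after rescaling to a common total and -0.01 under both median ratio scaling and quantile normalization, so small differences such as those of Nfkb1 (0.0 to 0.25) and Nfkbib (0.02 to 0.27) depend on the scaling. The share of all calls that were higher in Tyr-H was 33.9%, and 26.2%, 48.4% and 55.3% under these scalings in that order. All calls numbered 1254, falling to 388 with a pseudocount of 1 FPKM and 640 with a mean of at least 1 FPKM. Textbook targets called were 14, 7 and 8 in the same settings. Libraries of the same number did not deviate together (correlations of 0.009, 0.034 and -0.173 over 11026 genes), and with a replicate block the calls numbered 1258 and the members called 4. Under the block Nfkbib no longer passed the adjusted p (0.068). Psmb9 lost its call under it (adjusted p = 0.052) and, like Tnf, with a pseudocount of 0.01 FPKM (adjusted p = 0.068 for each). Depth limits the values under 1 FPKM most, among them Bcl3 in Tyr-L and Tnfaip3, which was not tested at a mean of at least 1 FPKM.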
